A study of Mus musculus with 12 samples.

Results

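The 41 genes described here mark epithelial and ductal identity in pancreatic tumors. They were taken as the rows of the deposited tables whose gene name is on a list of keratins, junction genes, epithelial regulators, ductal transcription factors and classical-subtype genes. All 41 were found, each as 1 row, among 47643 genes. The samples were 12 pieces of pancreatic tumor from mice, 6 labelled Young tumor and 6 labelled Old tumor. Both ages carried tumors of KPC4662, an epithelial line from mouse pancreatic ductal adenocarcinoma, so the groups share the line and differ by the age of the host mouse. The ages in weeks, the strain, the sex, the route of implantation and whether the pieces are from separate mice are not given in the labels used here. All p-values therefore measure the spread between pieces. Library totals ran from 17754645 to 24097599 counts.

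Pancreatic ductal tumors keep part of the program of duct cells. Simple keratins form the filaments of the cytoplasm, E-cadherin and Epcam join neighbouring cells, claudins and occludin seal the tight junction, and desmosomal proteins tie the filaments of adjacent cells together. Transcription factors such as Gata6, Hnf4a and Foxa2 maintain the endodermal, or classical, state, and the splicing factors Esrp1 and Esrp2 set epithelial isoforms. Loss of junction genes together with gain of Vim and Zeb1 is the textbook pattern of epithelial-mesenchymal transition.

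The epithelial program was present in every tumor of either age, and most of it did not pass the test for age. All 41 members passed the filter on low counts. With edgeR's quasi-likelihood test, adjusted over all 16013 tested genes, 1 member passed an adjusted p of 0.05: the homeobox factor gene Onecut3 rose in old tumors. None passed as lower with edgeR, DESeq2 or limma-voom, and 3 members below 0 (Cldn1, Cldn3 and Sox9) had an unadjusted p under 0.05 in edgeR. Over all tested genes 2.26% passed in either direction, 0.793% higher and 1.47% lower in old tumors, so 1 of 41 members is a share close to the background. The background split was 127 genes higher and 235 lower, 152 and 143 with scaling to total counts only, and 291 and 48 on log2(TPM + 1), where the median of all tested genes was 0.13. The median log2 fold change of the members, old over young, was 0.01, against 0.03 over all tested genes. There were 22 members above 0 and 19 below. An unadjusted p under 0.05 was reached by 8 of 41 members, 19.5%, against 21.1% of all tested genes. DESeq2 called 4 members (Onecut3, Onecut2, Tjp1 and Dsp) beside 8.99% of all tested genes, and limma-voom 2 (Onecut3 and Tjp1) beside 6.1%. All of these were higher in old tumors. In that direction DESeq2 called 573 and limma-voom 418 of all 16013 tested genes. No test compared the member shares with these backgrounds. On log2(TPM + 1) in limma 3 members passed (Onecut3, Tjp1 and Gata6), all higher, beside 2.12% of all tested genes. For none of the members were the 6 old and the 6 young libraries fully apart, as they were for 2.97% of all tested genes. In bulk samples, fewer cells of a type and less RNA per cell cannot be told apart.

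**Figure D1:**
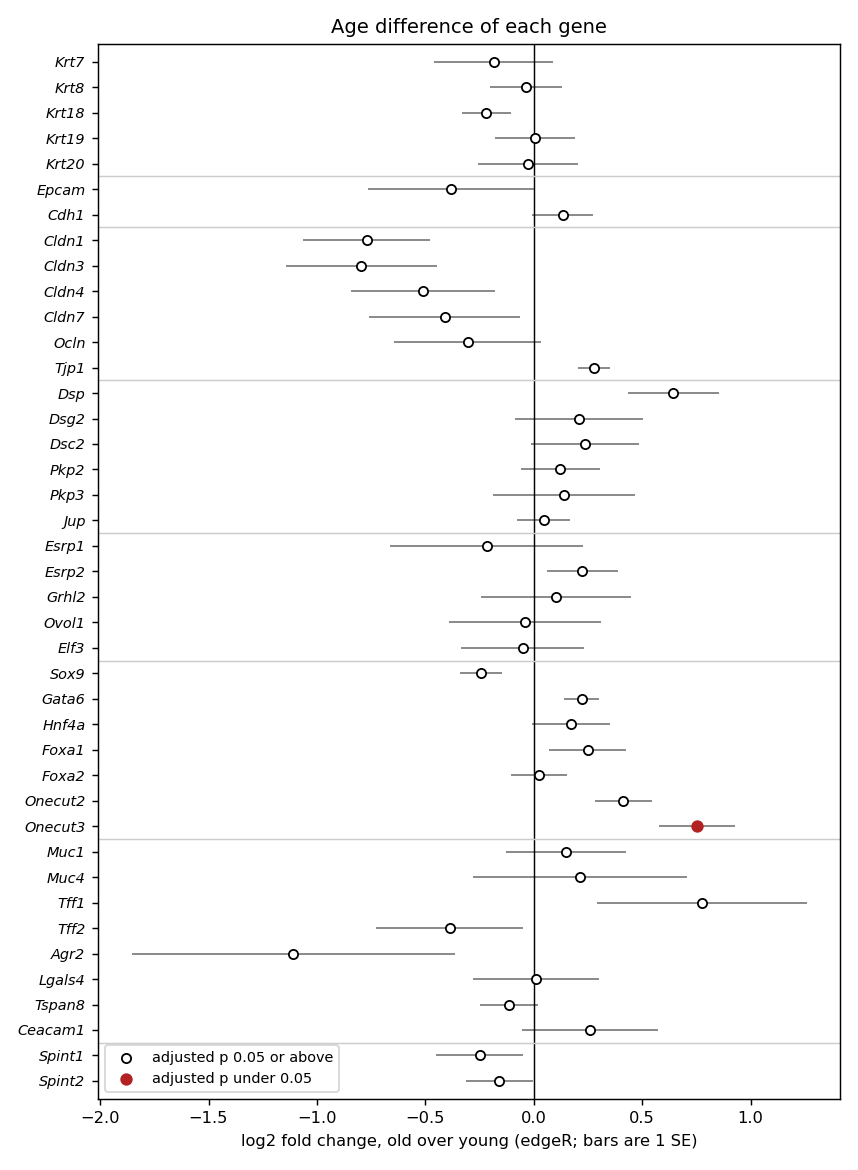
Log2 fold change (old over young, edgeR) of each of the 41 genes, grouped by role from keratins at the top to protease inhibitors at the bottom. Bars are 1 SE, and the filled point is Onecut3, the gene with an adjusted p under 0.05.

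Levels were compared between genes in TPM, which is scaled for gene length. Among the members, simple keratins had the highest mean levels. A ranking within a list of epithelial genes cannot check the labelled cell type, epithelial. Krt19, the keratin of pancreatic ducts, averaged 1850 TPM over 12 libraries, Krt18 1727 and Krt8 1585. Their ranges over the libraries overlapped, and these neighbours did not differ beyond their spread. The trefoil factor genes Tff1 and Tff2, secreted peptides of gastric mucous cells, followed at 938 and 570 TPM, then Krt7 and Spint2, both at 511. Between 100 and 1000 TPM lay 13 members, between 10 and 100 lay 21, and 4 lay under 10: Foxa1 at 8.69, Grhl2 at 1.77, Ovol1 at 1.35 and Cldn1 at 0.593. Counts were small for the last of these, with 14 to 54 per library for Cldn1, 16 to 100 for Ovol1 and 41 to 155 for Grhl2.

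**Figure D2:**
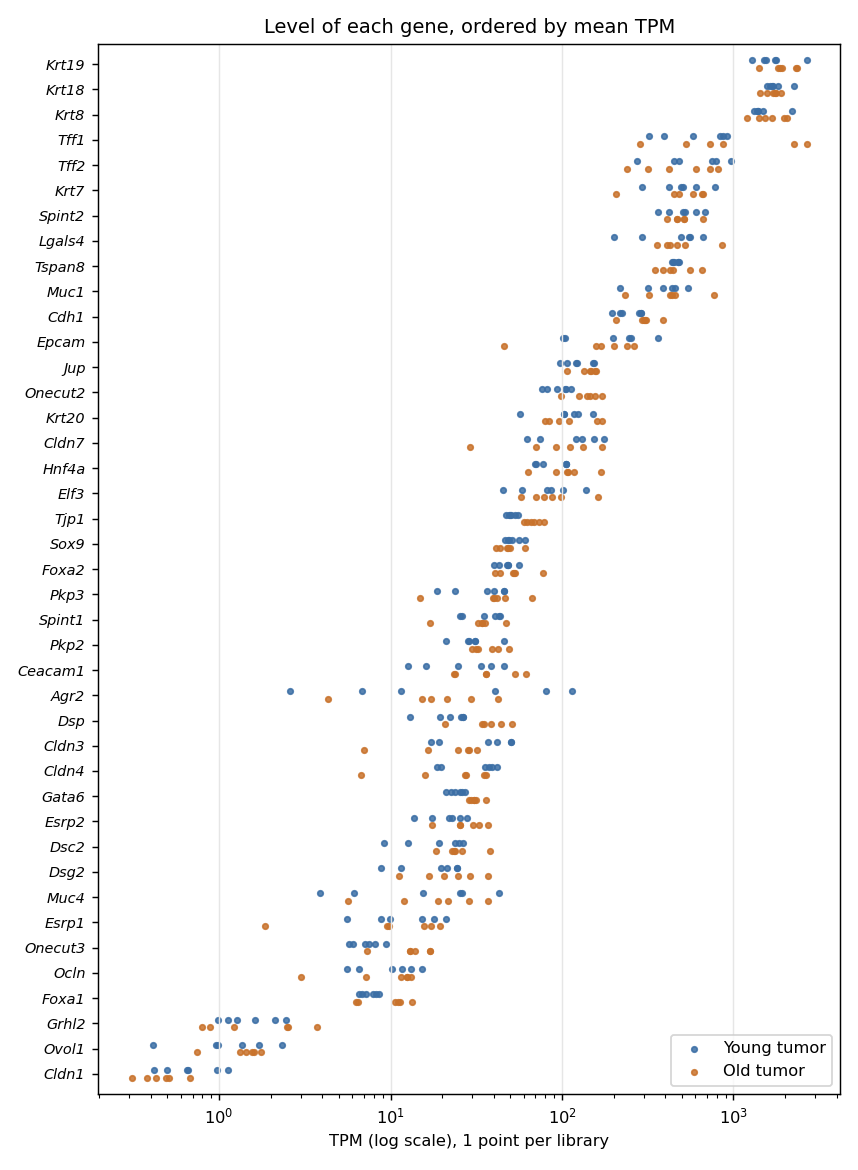
TPM of each gene on a log axis, with 1 point per library and genes ordered by mean TPM. The keratins Krt19, Krt18 and Krt8 lie above 1000 TPM in every library, and Foxa1, Grhl2, Ovol1 and Cldn1 have means under 10.

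Of the 5 keratin genes, 3 held the highest levels of all members, and none passed the test for age with edgeR, DESeq2 or limma-voom. Krt19 ran from 829 to 1920 CPM (the read count scaled to library size after TMM adjustment) in young tumors, with a median of 1089, and from 885 to 1445 in old tumors, with a median of 1130. The age groups overlapped, and the log2 fold change was 0.01 (SE 0.18, adjusted p = 0.99 by edgeR). Krt8, the type II partner of Krt18, had medians of 1578 CPM in young and 1656 CPM in old tumors, with a log2 fold change of −0.04 (SE 0.17). Krt18 ran from 1306 to 2093 CPM in young and from 1167 to 1542 CPM in old tumors, with medians of 1497 and 1354. Its log2 fold change of −0.22 (SE 0.11, adjusted p = 0.28 by edgeR) did not pass. Krt7, another duct keratin, and Krt20, a keratin of gastrointestinal epithelium, were at −0.18 (SE 0.28) and −0.03 (SE 0.23). None of the 5 had an unadjusted p under 0.05. Krt8, Krt19 and Krt20 changed sign with the scaling or unit, Krt8 and Krt20 to 0.11 and 0.093 on log2(TPM + 1). The highest Krt7, Krt8, Krt18 and Krt19 values were all in Young tumor 5. Reads that fit several similar keratin genes or their processed copies are divided by RSEM, which leaves their levels uncertain.

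The adhesion genes Cdh1 and Epcam differed in spread between tumors, and neither passed the test for age. Cdh1 (ENSMUSG00000000303; chromosome 8, 106603351 to 106670246, mm10), which codes for E-cadherin, ran from 560 to 884 CPM in young tumors (median 719) and from 554 to 1048 CPM in old tumors (median 780). The groups overlapped over most of their range, with a log2 fold change of 0.13 (SE 0.14, adjusted p = 0.62 by edgeR). Epcam (ENSMUSG00000045394; chromosome 17, 87635979 to 87651129), a homophilic adhesion protein of epithelia, ran from 131 to 501 CPM in young (median 276) and from 53.6 to 302 CPM in old tumors (median 216). Its spread was wide: the highest library had 9.35 times the CPM of the lowest, against 1.89 times for Cdh1. The log2 fold change of Epcam was −0.38 (SE 0.38, adjusted p = 0.60 by edgeR), and ranged from −0.52 without Young tumor 2 to −0.12 without Young tumor 5, its highest library. Without Old tumor 5, its lowest, it was −0.17.

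Among the tight junction genes the 5 membrane protein genes lay below 0 and the scaffold gene above (Ocln at 0.0024 without Old tumor 1 and Old tumor 5), and none passed with edgeR. An unadjusted p under 0.05 was reached by Cldn1, Cldn3 and Tjp1, and DESeq2 and limma-voom called Tjp1. Claudins and occludin span the membrane, and Tjp1 codes for ZO-1, the plaque protein that anchors them to actin. Cldn3 ran from 13.4 to 41.7 CPM in young (median 29.7) and from 4.97 to 22.4 CPM in old tumors (median 19.0). Each of the 6 old values was under the young median, although Young tumor 1 and Young tumor 2 lay within the old range. The log2 fold change of Cldn3 was −0.79 (SE 0.35, adjusted p = 0.21 by edgeR). Cldn1, at the lowest level of all members, was at −0.77 (SE 0.29, adjusted p = 0.16 by edgeR), again with each of the 6 old values under the young median. Cldn4 ran from 21.5 to 48.3 CPM in young (median 42.1) and from 7 to 37.1 CPM in old tumors (median 29.3), and Cldn7 from 33.0 to 96.6 (median 77.2) and from 15 to 84.2 CPM (median 51.7). Ocln had medians of 19.7 and 17.2 CPM. In all of these the age groups overlapped, with log2 fold changes of −0.51 (SE 0.33) for Cldn4, −0.41 (SE 0.35) for Cldn7 and −0.30 (SE 0.34) for Ocln. These values depended on Old tumor 5: without it they were −0.30, −0.21 and −0.10, and that of Cldn3 was −0.60.

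Tjp1 showed the opposite sign with the tightest spread of the group. It ran from 153 to 189 CPM in young (median 168) and from 177 to 232 CPM in old tumors (median 202), with each of the 6 old values over the young median. The groups overlapped only through Young tumor 3, at 189 CPM, and Old tumor 1, at 177 CPM. The log2 fold change of Tjp1 was 0.28 (SE 0.07, adjusted p = 0.061 by edgeR). It passed with DESeq2 (0.27, adjusted p = 0.0097) and limma-voom with quality weights (0.26, adjusted p = 0.036), and on log2(TPM + 1) in limma (0.41, adjusted p = 0.035). It lay at 0.17 with the trend on gene length removed.

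Promoter sequences are shown for Epcam and the tight junction genes Cldn3, Cldn4, Cldn7 and Ocln, which had their lowest level in the same library, Old tumor 5, and for Tjp1, which had its highest there. The sequences are the 250 bases before the RefSeq start site (GRCm38.p6, the assembly of mm10), 5′ to 3′ on the strand of the gene. Capitals mark CACCTG or its reverse complement CAGGTG, the E-box that factors of the Snail and Zeb families bind.
Epcam, chr17:87635729-87635978, plus strand: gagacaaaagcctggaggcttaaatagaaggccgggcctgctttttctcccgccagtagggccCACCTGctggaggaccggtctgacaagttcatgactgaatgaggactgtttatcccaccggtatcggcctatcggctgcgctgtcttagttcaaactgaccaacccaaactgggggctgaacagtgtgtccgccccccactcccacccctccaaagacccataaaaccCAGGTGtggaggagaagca
Cldn3, chr5:134985964-134986213, plus strand: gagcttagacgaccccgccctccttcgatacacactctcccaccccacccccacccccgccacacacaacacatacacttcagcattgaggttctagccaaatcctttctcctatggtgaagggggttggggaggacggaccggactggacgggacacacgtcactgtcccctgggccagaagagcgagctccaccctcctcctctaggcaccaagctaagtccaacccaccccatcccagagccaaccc
Cldn4, chr5:134946935-134947184, minus strand: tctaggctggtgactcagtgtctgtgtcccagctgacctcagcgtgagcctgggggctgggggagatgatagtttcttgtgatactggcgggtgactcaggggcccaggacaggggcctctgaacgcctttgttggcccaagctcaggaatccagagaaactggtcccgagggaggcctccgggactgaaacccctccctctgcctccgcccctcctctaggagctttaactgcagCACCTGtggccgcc
Cldn7, chr11:69965171-69965420, plus strand: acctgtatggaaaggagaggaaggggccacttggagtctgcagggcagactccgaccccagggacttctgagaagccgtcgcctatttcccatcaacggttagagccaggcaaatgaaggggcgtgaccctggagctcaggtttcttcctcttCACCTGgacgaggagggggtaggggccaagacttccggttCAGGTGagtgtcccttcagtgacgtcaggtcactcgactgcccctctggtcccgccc
Ocln, chr13:100552719-100552968, minus strand: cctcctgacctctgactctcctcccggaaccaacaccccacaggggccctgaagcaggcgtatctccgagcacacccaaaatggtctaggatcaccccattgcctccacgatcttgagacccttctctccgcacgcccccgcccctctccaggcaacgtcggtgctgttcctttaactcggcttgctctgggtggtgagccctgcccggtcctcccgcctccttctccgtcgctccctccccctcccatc
Tjp1, chr7:65371245-65371494, minus strand: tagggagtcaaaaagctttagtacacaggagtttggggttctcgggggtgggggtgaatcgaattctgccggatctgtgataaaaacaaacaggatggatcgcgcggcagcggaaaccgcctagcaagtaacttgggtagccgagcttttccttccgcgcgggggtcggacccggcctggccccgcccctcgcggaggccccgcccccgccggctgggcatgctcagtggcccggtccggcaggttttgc
The search covered both strands of windows from 250 bases before to 50 after the start, and 25 of 41 members had a window in the RefSeq table. The E-box was found in the windows of 15 of those 25 genes, and in 16 of their 30 windows. It was in 20.2% of all 32851 windows of that length. In Epcam the matches began 187 and 19 bases before the start, in the Cldn7 window shown 97 and 57 before. Cldn7 and Ocln had 2 windows each, and the window shown was the first of them that held the E-box. Cldn4 had a match 14 bases before and another 11 after the start, and Cldn3 and Ocln had matches 31 and 7 after it. The 250 bases shown of Cldn3 and Ocln therefore hold none, nor does the window of Tjp1. Other members with the E-box included Hnf4a, which was highest in Old tumor 5, and Krt8 and Dsp. The genes shown are only part of the 11 members lowest in Old tumor 5. Among those not shown, Krt7 and Foxa1 held the E-box, and Esrp1, Pkp3, Grhl2 and Spint1 had no match or no window. The sequence AACCNGTT, recognised by Grainyhead-like factors such as Grhl2, was in the window of Muc1 alone among the members (2.09% of all windows). The Onecut core ATTGAT was in windows of Foxa2, Hnf4a, Krt8 and Tspan8 (7.54% of all windows). These matches describe letters in a window and are no record of binding.

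All 6 desmosome genes had a fold change above 0 (Jup at −0.034 with the length trend removed), and none passed with edgeR. Dsp had an unadjusted p under 0.05 and was called by DESeq2, and limma-voom called none. Dsp (ENSMUSG00000054889; chromosome 13, 38151294 to 38198577), which codes for desmoplakin, the protein that links the desmosome to keratin, had the largest value. It ran from 74.6 to 159 CPM in young (median 138) and from 111 to 284 CPM in old tumors (median 197). Of the old libraries 5 lay above the young maximum, and Old tumor 1 was the exception. The log2 fold change of Dsp was 0.64 (SE 0.21, adjusted p = 0.105 by edgeR). It passed with DESeq2 (0.63, adjusted p = 0.032), and in edgeR without Old tumor 1 (0.75, adjusted p = 0.030). The desmosomal cadherin genes Dsg2 and Dsc2 had close medians at either age: 76.0 and 76.4 CPM for Dsg2, 60.0 and 59.2 CPM for Dsc2, young before old. Their log2 fold changes were 0.21 (SE 0.30) and 0.24 (SE 0.25). The plaque genes Pkp2, Pkp3 and Jup, which code for plakophilins and plakoglobin, were at 0.12 (SE 0.18), 0.14 (SE 0.33) and 0.05 (SE 0.12). Jup, at 252 ± 44.5 CPM (SD, n = 6) in young tumors and 260 ± 32.8 CPM (SD, n = 6) in old ones, had the smallest age difference of the 6.

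The epithelial regulators showed no member past the threshold with edgeR, DESeq2 or limma-voom, and none with an unadjusted p under 0.05. Elf3, an ETS-family factor of epithelia and the most abundant of the group, ran from 55.6 to 182 CPM in young (median 102) and from 61.4 to 183 CPM in old tumors (median 89.8). The groups covered the same range (log2 fold change −0.05, SE 0.28). The paralogous splicing factor genes Esrp1 and Esrp2 were at −0.22 (SE 0.44) and 0.22 (SE 0.16). Esrp2 varied 2.31-fold between its lowest and highest library and Esrp1 13.9-fold, from 3.41 CPM in Old tumor 5 to 47.3 CPM in Young tumor 3. Leaving out Old tumor 5 moved Esrp1 to 0.02. Grhl2, a Grainyhead-like activator of junction genes, and Ovol1, a zinc finger repressor of mesenchymal genes, were at 0.10 (SE 0.35) and −0.04 (SE 0.35). Grhl2 had medians of 3.74 CPM in young and 4.31 CPM in old tumors, and Ovol1 medians of 2.20 and 2.53 CPM.

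Ductal and endodermal transcription factors held the 1 call. Onecut3 (ENSMUSG00000045518; chromosome 10, 80494835 to 80517276), a cut-homeobox factor of the Onecut family, ran from 18.1 to 27.8 CPM in young tumors with a median of 23.4. In old tumors it ran from 21.2 to 49.4 CPM with a median of 37.3. Of the old libraries 5 lay above every young library, and Old tumor 1 lay within the young range. Onecut3 rose by 1.69-fold (log2 fold change 0.75, SE 0.18, adjusted p = 0.045 by edgeR). In TPM it went from 7.31 ± 1.38 to 13.5 ± 3.56 (SD, n = 6 each).

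The call of Onecut3 lay close to the threshold, with adjusted p from 0.0029 to 0.15 over the alternatives. It was lost with an acinar score as covariate (0.67, adjusted p = 0.15 by edgeR) and with the length trend removed (0.72, adjusted p = 0.090 by edgeR). It was also lost with a replicate block (0.72, adjusted p = 0.057 by edgeR) and with no filter (0.74, adjusted p = 0.061 by edgeR). Of all tested genes, the fit with the acinar score called 1, the replicate block 1, the length trend removed 111 and no filter 151. The acinar score rested on 3 of 18 listed markers, those that passed the filter on low counts. With 1 library left out at a time the Onecut3 call was lost in 10 of 12 fits, with log2 fold changes from 0.67 to 0.78. It was kept without Young tumor 3 (0.83, adjusted p = 0.040 by edgeR) or Old tumor 1 (0.86, adjusted p = 0.0098 by edgeR). Young tumor 3 held its highest young value (27.8 CPM) and Old tumor 1 its lowest old value (21.2 CPM). The direction was the same in every alternative named here. Without Old tumor 1, Onecut2, Tjp1 and Dsp passed with edgeR as well, in a fit that called 6.86% of all tested genes. Old tumor 1 held the lowest old value of each of these genes too. Without Young tumor 3, which held the highest young value of Tjp1, Tjp1 passed beside Onecut3, in a fit that called 2.91%.

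Its paralog Onecut2 was far more abundant. Onecut2 ran from 669 to 950 CPM in young (median 861) and from 813 to 1417 CPM in old tumors (median 1125). The log2 fold change of 0.41 (SE 0.13, adjusted p = 0.095 by edgeR) did not pass with edgeR. It passed with DESeq2 (0.41, adjusted p = 0.031), and lay at 0.23 with the length trend removed. In TPM, Onecut2 averaged 118 and Onecut3 10.4 over the 12 libraries. Among the old libraries, Old tumor 4 and Old tumor 3 were highest and Old tumor 1 lowest for either gene.

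The other duct and endoderm factors spread around 0. Gata6, a zinc finger factor that marks the classical subtype, ran from 43.6 to 55.5 CPM in young (median 51.4) and from 54.0 to 67.4 CPM in old tumors (median 57.7). Each of the 6 old values was over the young median, but the log2 fold change of 0.22 (SE 0.08, adjusted p = 0.145 by edgeR) did not pass with edgeR; on log2(TPM + 1) in limma it did (0.35, adjusted p = 0.046). Sox9, the duct and progenitor factor, had medians of 137 CPM in young and 118 CPM in old tumors (log2 fold change −0.24, SE 0.10, adjusted p = 0.18 by edgeR). Hnf4a, a nuclear receptor of gut and liver epithelium, was at 229 ± 36.2 CPM (SD, n = 6) in young tumors and 257 ± 78.6 CPM (SD, n = 6) in old ones, a log2 fold change of 0.17 (SE 0.18). The forkhead factor genes Foxa1 and Foxa2 were at 0.25 (SE 0.18) and 0.02 (SE 0.13). Foxa2 spread little in young tumors, at 56.5 to 70.9 CPM, and more in old ones, at 48.1 to 90.9 CPM, and Foxa1 likewise, at 12.9 to 17.6 and 12 to 25.8 CPM. Foxa1 passed in 1 alternative, without Old tumor 1 and Old tumor 5 (0.49, adjusted p = 0.038 by edgeR), where 4.55% of all tested genes were called. Old tumor 5 and Old tumor 1 held the lowest Foxa1 values of either age. The remaining old values, from 19.4 CPM, all lay above the young maximum of 17.6 CPM. The choice of libraries thus set the age groups apart, and that fit cannot decide whether Foxa1 differed by age.

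**Figure D3:**
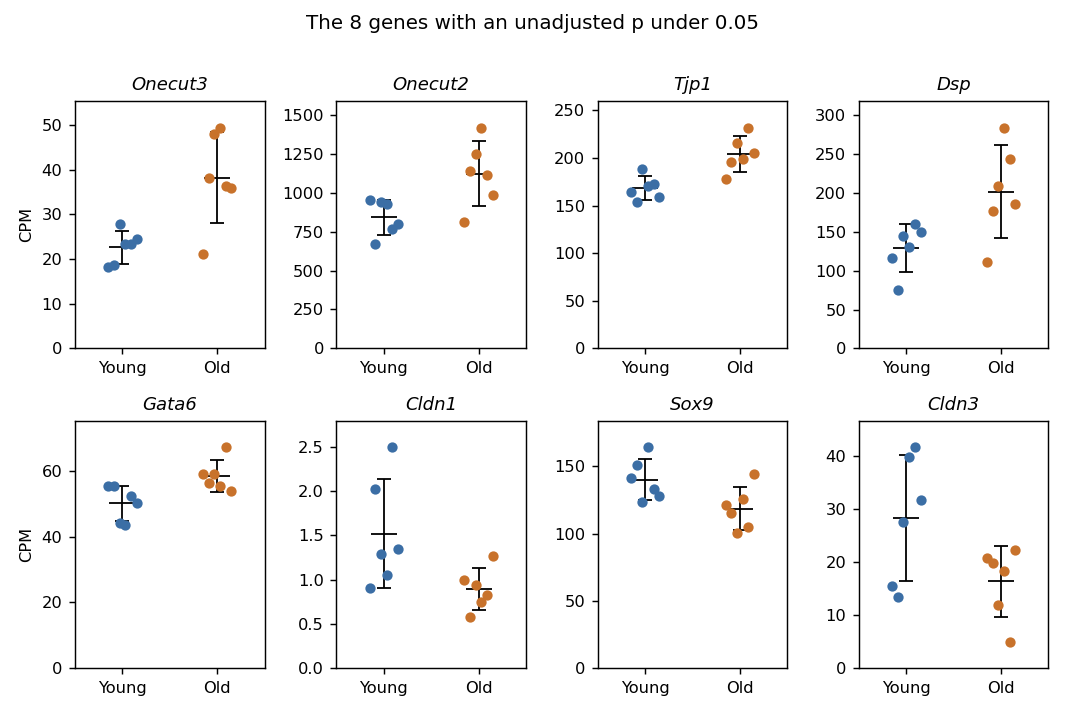
CPM in each library for the 8 members with an unadjusted p under 0.05, by age group, with bars at the mean ± 1 SD of 6 libraries. Onecut3 lies at 18.1 to 27.8 CPM in young and 21.2 to 49.4 CPM in old tumors, and the age groups overlap in each panel.

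Mucins, trefoil factors and classical-subtype genes varied widely between tumors of the same age, and none of the 8 passed with edgeR, DESeq2 or limma-voom or had an unadjusted p under 0.05. Tff1 ran from 84.9 to 261 CPM in young (median 185) and from 67.7 to 667 CPM in old tumors (median 191). Old tumor 4 (667 CPM) and Old tumor 5 (542 CPM) stood far above the other old tumors, and the medians were close. Its log2 fold change was 0.77 (SE 0.48, adjusted p = 0.38 by edgeR), and 0.37 without Old tumor 4. Tff2, which lies near Tff1 on chromosome 17, had medians of 210 and 158 CPM in young and old tumors (log2 fold change −0.39, SE 0.34).

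Agr2, a disulfide isomerase that folds mucins, had the widest range of any member, 42.6-fold, from 1.20 CPM in Young tumor 2 to 51.2 CPM in Young tumor 3. Both ends of that range were young tumors, and the log2 fold change of −1.11 (SE 0.74, adjusted p = 0.42 by edgeR) did not pass. It was −0.56 without Young tumor 3 and −1.40 without Old tumor 2. Muc1, a membrane mucin gene, ran from 197 to 552 CPM in young (median 397) and from 241 to 756 CPM in old tumors (median 389). Muc4, another, had medians of 40.1 and 41.2. Their log2 fold changes were 0.15 (SE 0.28) and 0.21 (SE 0.49). The lectin gene Lgals4, the tetraspanin gene Tspan8 and the adhesion gene Ceacam1 were at 0.01 (SE 0.29), −0.11 (SE 0.13) and 0.26 (SE 0.31). Tspan8 was narrow in young tumors, at 373 to 447 CPM, and wider in old ones, at 285 to 516 CPM. Spint1 and Spint2, inhibitors of the membrane protease matriptase, were at −0.25 (SE 0.20) and −0.16 (SE 0.15), and neither had an unadjusted p under 0.05 or a call with edgeR, DESeq2 or limma-voom. Spint2 had a median of 383 CPM in young and 337 CPM in old tumors, and Spint1 one of 52.1 and 41.5 CPM.

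Individual tumors stood out across many members at a time. Young tumor 5 and Old tumor 4 each held the highest value of 14 of 41 members (34.1%), where 9.37% and 8.50% of all tested genes were highest. In Young tumor 5 these were led by Krt7, Krt8, Krt18, Krt19 and Epcam, and in Old tumor 4 by Cdh1, Dsp, Elf3, Muc1 and Onecut3. Young tumor 2 held the lowest value of 15 members (36.6%, against 11.5% of all tested genes), among them Muc1, Muc4, Lgals4, Dsp and Krt19. Old tumor 1 held the lowest value of 5 (12.2%, against 8.12% of all tested genes), including Krt8, Krt18 and Cdh1. Young tumor 1 held that of 4 (9.76%, against 9.23%), a share close to the background. Low levels across the set were not limited to Young tumor 2. Only 4 of 41 members lay above their own median over all libraries in Old tumor 1, 6 in Young tumor 1 and 7 in Young tumor 2. The next fewest were 14, in Old tumor 2.

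The fibroblast marker list (10 of 10 genes tested, none called) differed between some of these tumors and not others. Its summed level was lowest in Old tumor 4, at 1356 CPM, and Young tumor 5, at 1601 CPM, and highest in Old tumor 1, at 9973 CPM. In Young tumor 2 it was 3165 CPM, close to the young median of 3061 CPM. The range was 1601 to 3750 CPM over young and 1356 to 9973 CPM over old tumors, with no marker at 0 in all 12. All 10 fibroblast markers had a fold change above 0 with edgeR, and 2 of them, Pdgfra and Pdgfrb, an unadjusted p under 0.05. With the fibroblast score as a covariate, 5.25% of all tested genes were called, and 4 members were called higher in old tumors: Onecut3 (0.89, adjusted p = 0.013 by edgeR), Onecut2 (0.49, adjusted p = 0.033 by edgeR), Dsp (0.80, adjusted p = 0.025 by edgeR) and Tjp1 (0.31, adjusted p = 0.041 by edgeR). The part of fibroblast content in the member values was not tested further. Acinar markers summed to 13.3 to 76.0 CPM in young and 13.3 to 20.5 CPM in old tumors, with 8 of 18 under 1 CPM in every library. The mesothelial list, whose cells also make simple keratins, summed to 327 to 543 CPM in young and 436 to 555 CPM in old tumors, with Msln at 319 to 549 CPM of it. Endothelial markers summed to 103 to 142 CPM in young and 88.9 to 370 CPM in old tumors, and macrophage markers to 869 to 1354 and 806 to 1978 CPM, so markers of other cell types were present beside the labelled epithelial type.

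**Figure D4:**
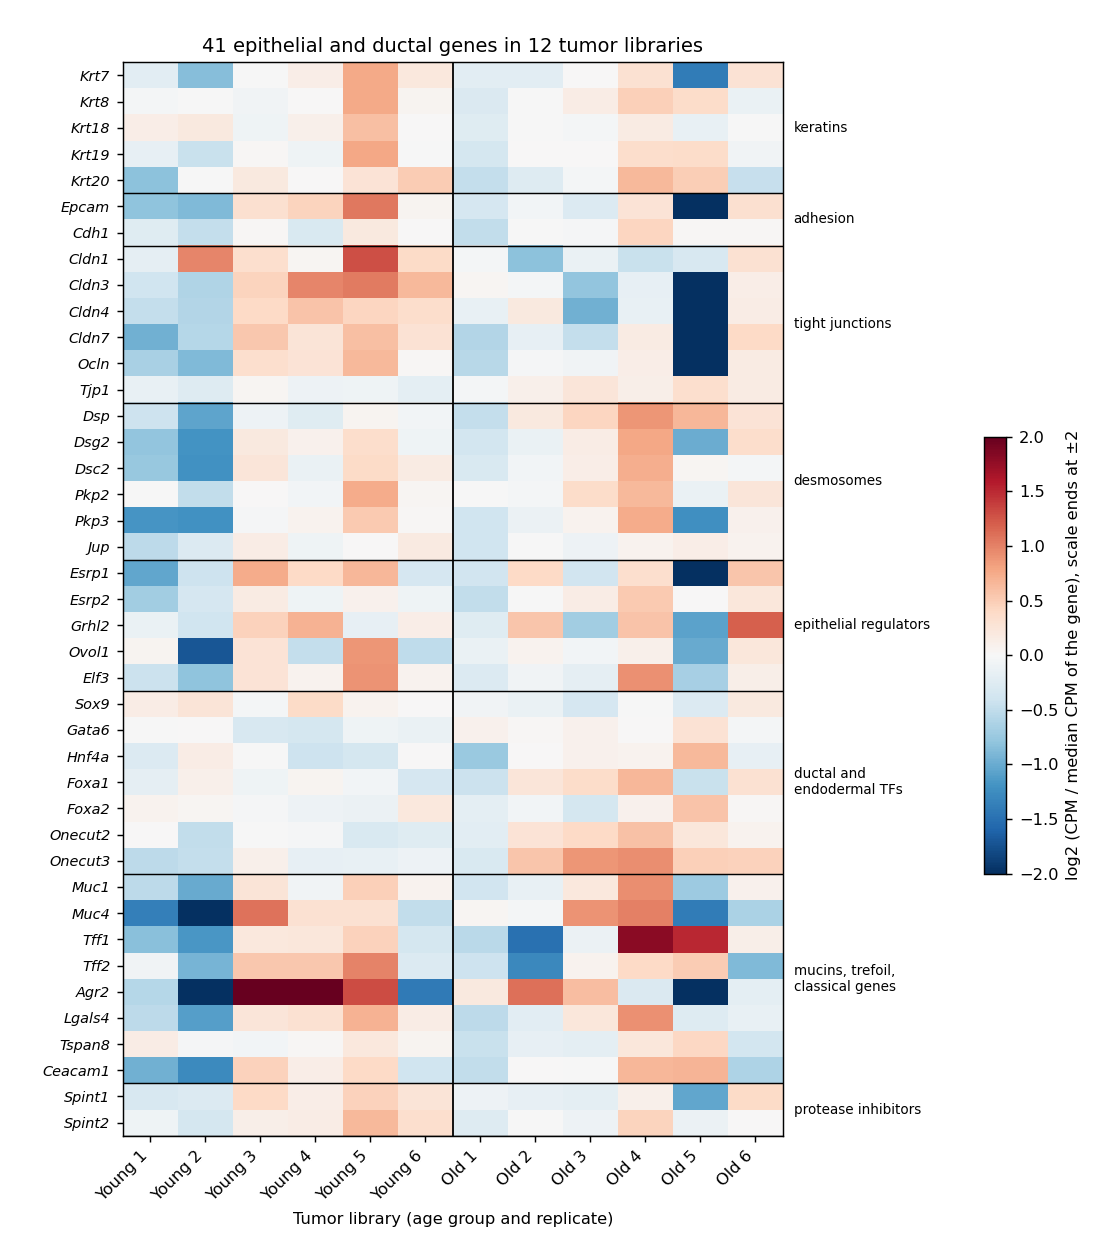
Log2 ratio of each gene's CPM to its median over 12 libraries, with rows by role and columns by tumor; colours end at ±2. Young tumor 5 and Old tumor 4 are high over most rows. Young tumor 1, Young tumor 2 and Old tumor 1 are low over most rows. Old tumor 5 is low in Epcam, Cldn3, Cldn4, Cldn7, Ocln and Esrp1 and high in Hnf4a and Foxa2.

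In Old tumor 5 a set of junction and regulator genes was several-fold lower than in the other tumors, while most member keratins and Cdh1 were within their range. It held the lowest value of 11 members (26.8%, against 10.3% of all tested genes) and the highest of 6 (14.6%, against 16.3%). Esrp1 was at 3.41 CPM there, 10.4-fold below the median of the other 11 tumors (35.5 CPM). Cldn4 was 5.11-fold, Cldn7 4.75-fold, Epcam 4.66-fold, Ocln 4.52-fold and Cldn3 4.19-fold below the median of the other 11. For each of these 6 genes every other tumor lay higher, and the next lowest Epcam value was 131 CPM against 53.6 CPM in Old tumor 5. Krt7, Pkp3, Grhl2, Foxa1 and Spint1 were also lowest there. In the same tumor Cdh1, at 791 CPM, was 1.03 times the median of the others, and Krt8 and Krt19 were each 1.29 times. Hnf4a (391 CPM), Foxa2 (90.9 CPM), Gata6, Tjp1, Tspan8 and Ceacam1 were higher than in any other tumor, at 1.22 (Gata6) to 1.62 (Ceacam1) times the median of the others.

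**Figure D5:**
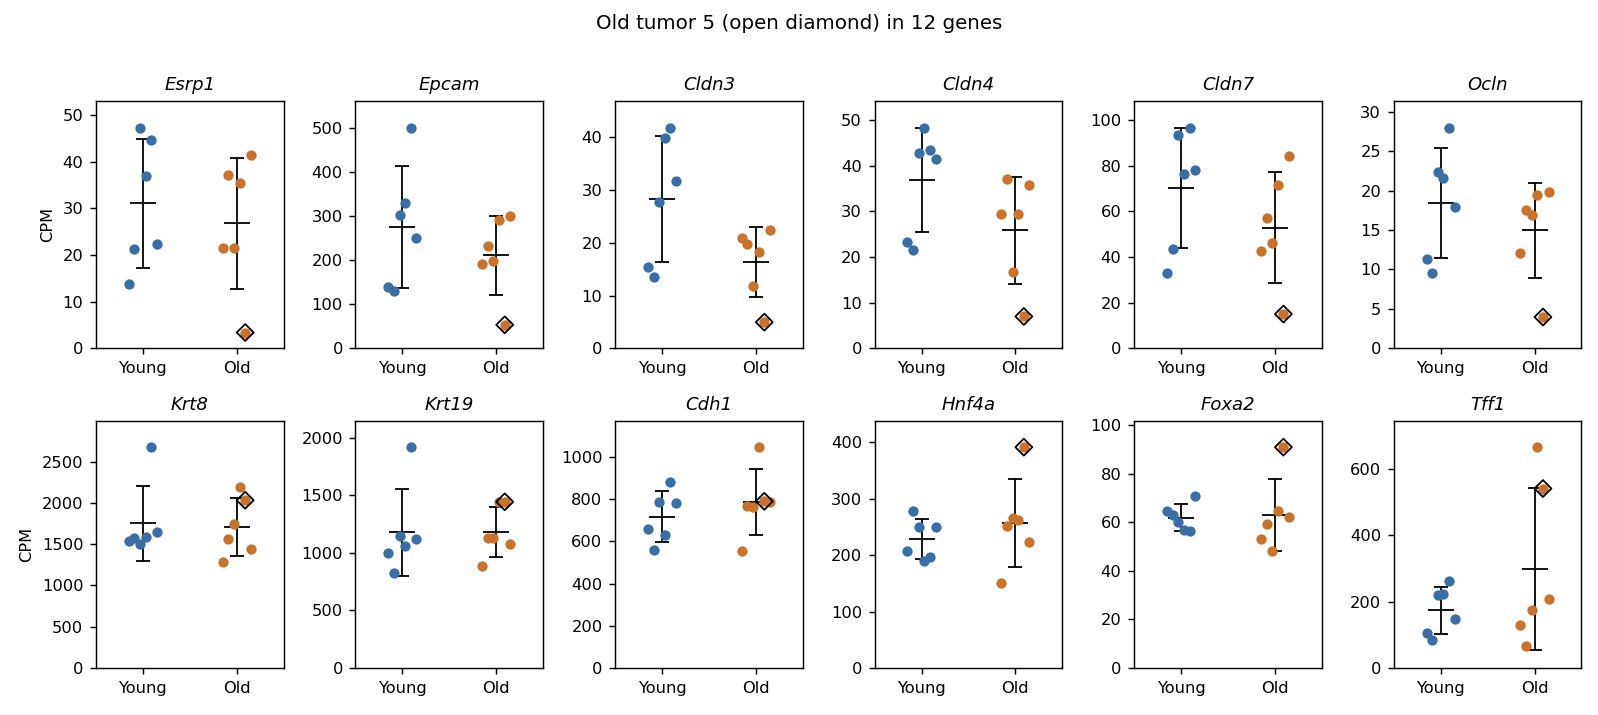
CPM in each library for 12 members, by age, with the mean ± 1 SD of 6 libraries; the open diamond marks Old tumor 5. Old tumor 5 is the lowest of 12 tumors in the first 6 panels, lies inside the range of the others for Krt8, Krt19, Cdh1 and Tff1, and is the highest for Hnf4a and Foxa2.

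Some genes outside the 41 that belong to the same structures were also out of range in Old tumor 5, where 10.3% of all tested genes were lowest and 16.3% highest. Of 18 tested other tight junction and polarity genes 4 were lower there than in any other tumor (Cldn6, Cldn18, Marveld3 and Cgn) and none higher. Among 9 tested other epithelial regulators, Rab25, St14, Prss8 and Ap1m2 were lower than anywhere else and Klf4 was higher. Of 3 tested other keratins 2 were lowest there (Krt14 and Krt80). Of 8 other adherens junction and desmosome genes, Pkp1 was lowest and Ctnna1 highest. Of 8 other ductal and endodermal transcription factors, Pdx1 and Prox1 were highest and none lowest. Of 14 other ductal, gastric and classical-subtype genes 4 were lowest and 3 highest. Of 10 basal-like genes 2 were lowest and 1 highest. St14, the matriptase that Spint1 inhibits, was 6.38-fold and Rab25, a small GTPase of epithelial recycling, 8.07-fold below the median of the other 11. Of the 10 mesenchymal counterparts 3 were highest in Old tumor 5. The intermediate filament gene Vim was at 3136 CPM (1.71 times the median of the others), the repressor gene Zeb1 at 69.1 CPM (1.49 times) and Snai1 at 13.6 CPM (1.45 times). The other 7 lay within the range of the other tumors, from 0.46 times the median for Twist2 to 1.26 times for Prrx1, with Twist1 at 0.99, Snai2 at 1.02, and Cdh2 and Fn1 at 0.86. The fibroblast marker sum of Old tumor 5, 4495 CPM, was the highest but for Old tumor 1, and all 10 fibroblast markers lay above the median of the other 11 tumors, at 1.13 (Fap) to 1.71 (Postn) times that median. All 8 endothelial and all 7 macrophage markers also lay above the median, with Cdh5 at 2.55 times and Adgre1 at 1.43 times, and all 7 T cell markers lay below it. The part of these cell types in the values of Old tumor 5 was not tested. Islet endocrine markers summed to 101 CPM in Old tumor 5, against 120 CPM in Young tumor 6 and 0.828 to 36.0 CPM in the rest. Of the 5 tested islet markers 3 were highest in Old tumor 5 (Gcg, Iapp and Chga). Ins1 and Ins2 were at 24.5 and 25.2 times the median of the other 11 there. The part of islet cells in its values was not tested either. The values of Old tumor 5 belong to a single tumor piece and carry no test.

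Over the 8 lists of related genes, 80 of 99 listed genes passed the filter and none was called with edgeR (8 had an unadjusted p under 0.05, DESeq2 called Cldn2 and Muc5ac, and limma-voom called Muc5ac). The gastric mucin gene Muc5ac came closest. It went from 78.5 ± 62.8 to 535 ± 646 CPM (SD, n = 6 per age), with a fitted log2 difference of 2.77 (SE 0.70, adjusted p = 0.055 by edgeR), with 1812 CPM in Old tumor 5 and 562 CPM in Old tumor 4, the next highest. The protease gene Ctse, another gastric-type gene, was at 0.43 (SE 0.22). Cldn2, a pore-forming claudin, was at −0.25 (SE 0.08, adjusted p = 0.094 by edgeR) and F11r at −0.17 (SE 0.07). Of other keratins 3 of 8 were tested, with Krt23 at −0.51 (SE 0.19) and the basal keratin Krt14 at 0.36 (SE 0.48). Of other adherens junction and desmosome genes 7 of 8 tested lay above 0, with Ctnna1 at 0.12 (SE 0.07) and Evpl at 0.37 (SE 0.20). Klf4 and St14 were at 0.36 (SE 0.22) and −0.32 (SE 0.40), and Nr5a2 and Cdx2 at 0.87 (SE 0.50) and −0.46 (SE 0.16). Of 10 tested basal-like subtype genes 8 lay above 0, with Areg at −0.38 (SE 0.17) and Dhrs9 at 0.46 (SE 0.38). Mesenchymal counterparts had 6 of 10 above 0, with Zeb1 at 0.26 (SE 0.15) and Twist1 at −0.50 (SE 0.29). Cell division markers were called lower for 5 of 8 genes with edgeR, beside 1.47% of all tested genes.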

How the data were processed

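Poly(A) RNA from 12 tumor pieces went into directional libraries, per the labels' protocols. The submitters' processing notes name cutadapt 2.3, STAR 2.7.0d, RSEM 1.3.1 and the mm10 build. Which annotation and strand setting they used is not stated there. Expected counts per gene, and TPM in a separate table, are the values the authors deposited. Expected counts were rounded to whole numbers, and 86.0 to 88.2% of the deposited count values were whole already. Totals were 17754645 to 24097599 per library, and every pair of libraries differed by more than sampling noise.

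Genes passing edgeR's filterByExpr (16013 of 47643) were tested, old over young, with edgeR 4.0.16 (R 4.3.3; TMM scaling, quasi-likelihood F test, two-sided) over 6 and 6 libraries, with Benjamini-Hochberg adjustment over all tested genes and a threshold of 0.05. The SE is the log2 fold change divided by the square root of F. CPM used TMM library sizes. The fitting code was tested on simulated data. Alternatives were DESeq2 1.42.0, limma 3.58.1, other scalings and filters, TPM, covariates, a replicate block and libraries left out; the length trend used exon lengths from GENCODE M21 for 99.7% of tested genes. The 41 members and all lists were chosen with earlier results of these data known. The rule for values in full took members past the threshold, the 2 most abundant of each group, and the 4 of largest fold change and of smallest p; in related lists, the 2 of smallest p. Patj was not matched by name.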

Additional observations from a re-analysis of the deposited data

Results flagged for a closer look

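In 7 of 82 sets of 6 libraries (each gene in each age group), the highest value stood far from the other 5 by Dixon's test; at 1 in 20, chance gives 4.1. Of these, 4 were in Young tumor 5, where Krt8 was at 2677 CPM (next highest young value 1645), Krt18 at 2093 CPM (1579), Krt19 at 1920 CPM (1143) and the plakophilin gene Pkp2 at 92.1 CPM (56.6). The other 3 were in Old tumor 4, where the desmosomal cadherin gene Dsc2 was at 98.4 CPM (next highest old value 64.5), Elf3 at 183 CPM (106) and Spint2 at 472 CPM (349). These are the tumors with the lowest summed fibroblast markers, at 1601 and 1356 CPM. The part of fibroblast content in these values was not tested.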

How the results depend on the processing

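The count of members called, 1 in the test as reported, stayed 1 with RLE or upper-quartile scaling and with a filter of 1 CPM in 6 libraries. It was 2 with total counts only, 4 with DESeq2, 2 with limma-voom, 3 on log2(TPM + 1) or log2(TPM + 0.1), 4 with the fibroblast score, 4 without Old tumor 1 and Old tumor 5, and 0 with no filter, the acinar score, the length trend removed or the replicate block. Leaving out 1 library gave 0 to 4 members, with 2 without Young tumor 3, 4 without Old tumor 1 and 0 without any other. Over all tested genes the count was 362, against 419 with RLE scaling, 378 with upper-quartile scaling and 295 with total counts only. It was 522 of 14373 genes with the filter of 1 CPM in 6 libraries and 151 of 29230 with no filter. DESeq2 called 1439, limma-voom 977, log2(TPM + 1) 339 and log2(TPM + 0.1) 356. The count was 1 with the acinar score, 841 with the fibroblast score and 111 with the length trend removed. It was 1 with the replicate block and 742 without Old tumor 1 and Old tumor 5. Leaving out 1 library gave 2 (without Old tumor 3) to 1106 (without Old tumor 1). The cause was not tested.

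Same-numbered young and old libraries correlated at −0.23 to 0.14, and 2 of 6 matched their own number best. Such correlations cannot decide whether same-numbered libraries share a batch, and the main test treated the libraries as unpaired. Under the replicate block Onecut3 was at 0.72 (adjusted p = 0.057 by edgeR).

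Of 41 members, 26 kept their sign in every setting. Reversed log2 fold changes were, with the fibroblast score, Krt8 0.099, Krt20 0.074, Esrp1 0.023, Ovol1 0.198 and Elf3 0.183. On log2(TPM + 1) they were Krt8 0.11, Krt20 0.093, Ovol1 0.102 and Elf3 0.128, and on log2(TPM + 0.1) Krt8 0.11, Krt20 0.094, Ovol1 0.221 and Elf3 0.13. With the length trend removed they were Krt8 0.013, Krt20 0.022 and Jup −0.034. With limma-voom they were Grhl2 −0.086, Ovol1 0.163, Foxa2 −0.060 and Lgals4 −0.051, and with the replicate block Grhl2 −0.038, Ovol1 0.105 and Foxa2 −0.0022. Without Old tumor 1 and Old tumor 5 they were Krt7 0.043, Ocln 0.0024, Esrp1 0.131, Ovol1 0.137, Elf3 0.159 and Foxa2 −0.072. With the acinar score they were Krt19 −0.0076, Esrp1 0.0018 and Lgals4 −0.059. Krt19 was also −0.0022 with RLE scaling and DESeq2, −0.0014 with upper-quartile scaling, −0.0063 with no filter and −0.0060 with the stricter filter, and Lgals4 −0.0013 with no filter.

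Leaving out 1 library, signs turned within −0.12 to 0.12 for Krt8, −0.084 to 0.20 for Krt19, −0.18 to 0.071 for Krt20, −0.034 to 0.10 for Jup, −0.083 to 0.32 for Pkp3, −0.38 to 0.023 for Esrp1, −0.18 to 0.28 for Grhl2, −0.23 to 0.24 for Ovol1, −0.30 to 0.17 for Elf3, −0.097 to 0.091 for Foxa2, −0.10 to 0.28 for Muc1, −0.019 to 0.59 for Muc4 and −0.23 to 0.18 for Lgals4. None of these passed the threshold. Counts of 14 to 54 per library limit Cldn1.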
